A study of Mus musculus with 2 samples.

Results

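EC3 is 1 of the 15 clusters into which the authors sorted the osteogenic and mesenchymal cells of the embryonic mouse coronal suture, the fibrous joint between the frontal and parietal bones. EC stands for ectocranial, the tissue above the bones, and the cells were chosen here by the cluster name that the authors gave each barcode. EC3 held 1379 of 12165 labelled cells, which were 1185 of 5335 at E15.5 (22.2%, 95% Clopper-Pearson interval 21.1 to 23.4) and 194 of 6830 at E17.5 (2.84%, 2.46 to 3.26). The tissue came from wildtype C57/BL6 embryos with no treatment, at embryonic days E15.5 and E17.5. Each stage is 1 deposited count matrix of droplet single-cell RNA-seq, called a library here, in which unique molecular identifiers (UMIs) count captured transcripts. At E15.5 tissue of 10 sutures was pooled, digested with collagenase II and dispase and depleted of dead cells with a kit. The E17.5 library joins batches of 10, 3 and 3 sutures from 2 litters, digested with collagenase IV and sorted for live cells by flow cytometry. The paper states that these batches were sorted and prepared for sequencing apart, and that counts were then aggregated. Stage, enzyme, cell selection and embryos therefore differ together and cannot be told apart. Skin and brain were taken off before the sutures were cut out, and how much of the ectocranial tissue left with the skin was not measured.

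The ectocranial mesenchyme is a stack of fibroblast layers between the skull bones and the skin. Its outer layers merge with the lower dermis and hypodermis, a loose connective tissue that holds progenitors of dermal, fascial and fat cells. Such progenitors are widely marked by *Pi16*, a secreted protease inhibitor, *Dpp4*, a cell surface peptidase, *Ly6a*, the stem cell antigen Sca1, and *Cd34*, a sialomucin. *Dpt* encodes dermatopontin, a matrix protein of the dermis.

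EC3 cells had a median of 8606 UMIs and 2678 genes at E15.5 and 9243.5 UMIs and 2777 genes at E17.5, against 8466 and 12403.5 UMIs in the other labelled cells. Levels are given as CPM, the summed UMIs of a gene over the summed UMIs of all genes times 1e6, and ratios compare EC3 with all other labelled cells of the same library. With 1 library a stage no difference was tested, and all intervals (95%) cover counting error only. A gene is called higher or lower when it was at least 2-fold apart in the same direction in both libraries and had at least 50 UMIs over EC3 and the other cells in each library. The authors drew the clusters from these same transcripts, so ratios between EC3 and the rest describe the cluster and are no independent evidence for it. The E17.5 barcodes carry a suffix from 1 to 3, not assigned to batches here, and EC3 made up 2.84%, 3.36% and 2.34% of the labelled cells of these suffixes (35, 93 and 66 cells). No EC3 barcode occurred in both libraries, although 42 labelled barcodes did.

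Of the markers given for EC3, *Dpt* was above the other cells in both libraries and *Pi16* at E17.5 but not at E15.5. *Dpt* stood at 519 CPM in EC3 (505 to 532) against 228.5 in the other cells at E15.5, a ratio of 2.27 (2.19 to 2.35). At E17.5 it stood at 316 CPM (292 to 342) against 97.2, a ratio of 3.26 (3.00 to 3.53). *Pi16* was lower in EC3 than in the other cells at E15.5, at 243 against 311 CPM (0.782, 0.749 to 0.815), and higher at E17.5, at 783 against 177 CPM (4.43, 4.20 to 4.67). Neither gene was highest in EC3: EC2 led both genes in both libraries, with 549.5 and 825 CPM of *Dpt* and 951 and 1563 CPM of *Pi16*, and EC1 also exceeded EC3 for *Pi16* at E15.5 (563 CPM). The direction of *Pi16* at E15.5 depends on the comparison group, since it was 1.70-fold higher in EC3 than the unweighted mean of the other 14 clusters. Outside EC1, EC2 and EC4 no cluster exceeded 38.7 CPM of *Pi16* at E15.5. The 3 suffixes at E17.5 had 338, 289.8 and 343 CPM of *Dpt* and 1221, 655 and 743 CPM of *Pi16* in EC3, all above the other cells of the same suffix.

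At E15.5 the markers were found together in EC3 cells about as often as separate detection would give. After each cell was thinned to 3000 UMIs, 57.8% of EC3 cells had a *Dpt* UMI and 39.1% a *Pi16* UMI at E15.5, and 22.0% had both, beside 22.6% if detection of each were independent. Unthinned, 73.2% had a *Dpt* UMI and 61.8% a *Pi16* UMI. In EC2 62.7% of thinned cells had both (63.0% if independent). At E17.5, 45.9% of thinned EC3 cells had *Dpt*, 65.5% had *Pi16* and 36.6% had both (30.0% if independent), whereas 85.5% of EC2 cells had both (85.4% if independent). In OG4, osteoblasts that should lack these genes, 3.98% and 3.04% of thinned cells had a *Dpt* UMI and 2.27% and 9.68% a *Pi16* UMI, at median depths of 7351.5 and 19349 UMIs before thinning.

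*Agtr2*, the type 2 angiotensin receptor, was abundant in EC3 in both libraries. It reached 1423 CPM in EC3 at E15.5, first of the 15 clusters, against 949 in EC2, 881 in EC1 and 475 in all other cells (ratio 2.99, 2.93 to 3.06). At E17.5 it stood at 839 CPM, beside 846 in EC2, and both were far above the 95.2 CPM of the other cells (8.81, 8.36 to 9.29). At E17.5 the interval of EC3 (799 to 881) contains the value of EC2. After thinning, an *Agtr2* UMI was found in 1090 of 1160 EC3 cells in the earlier library and in 142 of 194 (73.2%) in the later, against 43.8% and 12.9% of the other cells and 5.68% and 1.52% of OG4 cells.

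**Figure D1:**
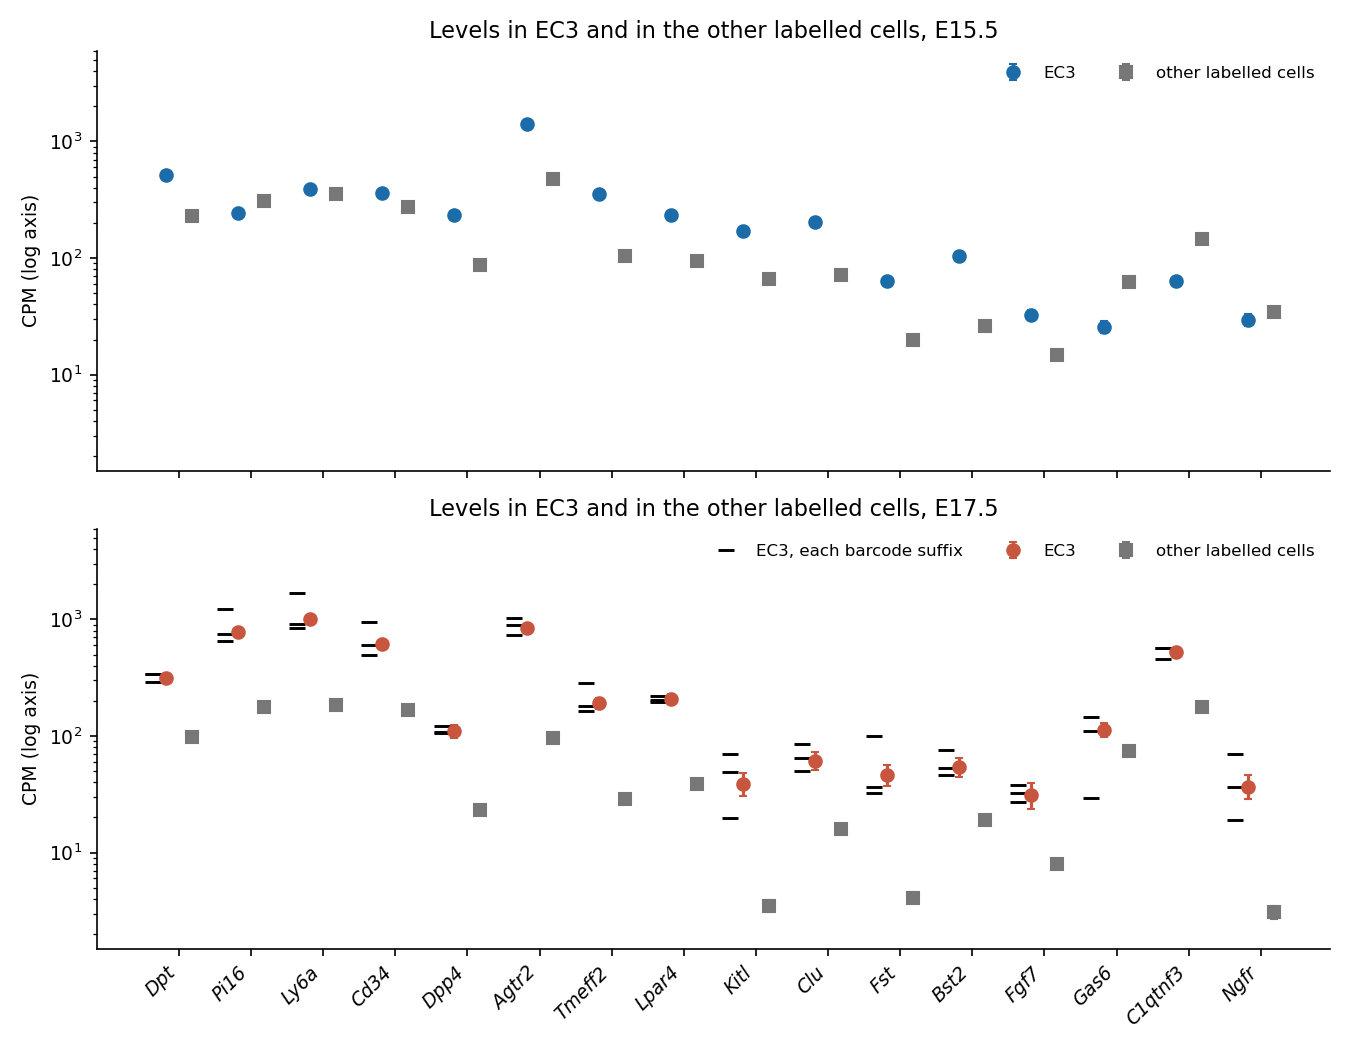
Level of 16 named genes in EC3 (circles) and in the other labelled cells (squares), in CPM on a log axis, at E15.5 (top) and E17.5 (bottom). Bars are exact Poisson 95% intervals and black dashes are the 3 barcode suffixes at E17.5. *Pi16* sits at 243 CPM below the other cells at E15.5 and at 783 CPM above them at E17.5, and *Agtr2* is above them in both.

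Of 12150 genes tested, 161 were higher in EC3 in both libraries (1.33%) and 270 lower (2.22%). In each library alone, 232 genes were higher (1.91%) and 715 lower (5.88%) at E15.5, and 836 higher (6.88%) and 855 lower (7.04%) at E17.5. The 15 with the largest ratio in the library where they differed least were *Ifit3*, *Oasl2*, *Ifit1*, *Htr1f*, *Phf11d*, *Ifi204*, *Isg15*, *Irf7*, *Gbp3*, *Rgs17*, *Irgm1*, *Kcnd2*, *Sfrp4*, *Il13ra1* and *Fmo2*. All 15 were rare transcripts with between 7 and 40 UMIs in EC3 at E17.5, and 9 of them belong to the interferon response described further on. Among the others, *Htr1f*, a serotonin receptor, stood at 5.41 against 0.765 CPM at E15.5 and 5.08 against 0.519 at E17.5. *Sfrp4*, a secreted Wnt antagonist, stood at 12.8 against 2.35 CPM and 15.2 against 3.91, and *Il13ra1*, a subunit of the interleukin 13 receptor, at 22.8 against 6.23 and 11.7 against 2.90. *Sfrp4* was highest in EC3 at E15.5 but far higher in MG4, a meningeal cluster, at E17.5 (62.1 CPM). Without the *Matn4* group described further on, *Il13ra1* stood at 0.736 times the level of EC2 at E17.5. *Htr1f* and *Sfrp4* then stood at 2.34 and 3.27 times that of EC2.

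Of the 161 genes, 48 had at least 50 UMIs in the EC3 cells themselves in both libraries, a filter added after the values were seen. Their 15 leaders were *Tmeff2*, *Fst*, *Agtr2*, *Tmem158*, *Clu*, *Bst2*, *Spon2*, *Dpp4*, *Tmem26*, *Kitl*, *Lpar4*, *Sdpr*, *Camk2n1*, *Col6a6* and *Sult5a1*. *Tmeff2*, a membrane protein with follistatin-like domains, stood at 352 against 105 CPM at E15.5 and 190.4 against 29.1 at E17.5. After thinning, a *Tmeff2* UMI was found in 61.2% of EC3 and 49.9% of EC2 cells at E15.5, and in 40.2% and 43.4% at E17.5. *Fst*, the secreted activin antagonist follistatin, stood at 63.7 against 19.7 CPM (3.23, 2.91 to 3.59) and 46.2 against 4.12 (11.2, 8.83 to 14.2). It was highest in EC3 of all 15 clusters in both libraries, and its 3 suffixes at E17.5 had 100.03, 36.7 and 32.5 CPM. *Kitl*, the ligand of the Kit receptor, stood at 171 against 66.4 CPM and 38.6 against 3.48. *Lpar4*, a lysophosphatidic acid receptor, stood at 236 against 93.7 CPM and 209 against 38.6, and *Clu*, the chaperone clusterin, at 203 against 71.6 and 61.4 against 15.8. *Kitl*, *Lpar4*, *Clu*, *Bst2*, *Tmem158*, *Sult5a1* and *Fgf7* were likewise first of the 15 clusters in both libraries. For *Lpar4* and *Tmem158* at E17.5 the margin over EC2 was small (209 against 196 CPM and 124 against 120.5 CPM). Some of the 15 leaders were below EC2 at E17.5, even without the *Matn4* group described further on. *Dpp4*, *Sdpr*, *Spon2* and *Tmem26* then stood at 0.577, 0.475, 0.777 and 0.794 times the level of EC2, and the rest were above it. *Sult5a1* at E17.5 had 24 of its 103 UMIs in the 28 cells of the *Matn4* group described further on. Without them it stood at 46.5 CPM, 0.986 times the level of EC4, so its first rank rests on that group. At E17.5, 67 of 106 *Bst2* UMIs lay in the 26 cells of the group led by *Bst2*, also described further on. The other EC3 cells had 22.6 CPM of *Bst2*, below the 26.3 of EC2, so this rank rests on that group. The same cells held 54 of 121 *Clu* UMIs, and *Clu* stood at 38.8 CPM in the other EC3 cells.

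At the other end stood genes of mineralizing bone. The 10 with the smallest ratio were *Slc13a5*, *Spp1*, *Ibsp*, *Bglap*, *Car3*, *Chst13*, *Dmp1*, *Ifitm5*, *Nppc* and *Bglap2*. *Ibsp*, bone sialoprotein, stood at 67.4 CPM in EC3 against 2034 at E15.5 and 170.6 against 1710 at E17.5. *Spp1*, osteopontin, stood at 9.60 against 256 and 22.9 against 265 CPM. *Nppc*, a natriuretic peptide, had 63 UMIs at E15.5 and none at E17.5, where the other cells had 20.4 CPM. All 9 osteoblast markers were lower, beside 2.22% of all genes. Their summed level was 115 against 2697 CPM and 437 against 2992 CPM, and none was at 0.

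The markers of other cell types were checked in the same way. The chondrocyte list summed to 306 against 423 CPM at E15.5 and 116 against 139 at E17.5, the meningeal list to 213 against 659 and 305 against 488, and the tendon and ligament list to 71.5 against 187 and 113 against 320. The endothelial list summed to 12.3 against 18.5 CPM and 9.65 against 12.8, and the glial list to 1.96 against 2.01 and 4.57 against 3.23. The keratinocyte list summed to 28.2 against 60.1 CPM and 42.7 against 32.9, with *Krt5*, *Krt14*, *Krt15* and *Epcam* at 0 in EC3 at E17.5. The skeletal muscle list summed to 27.8 against 51.1 CPM and 12.7 against 6.49. Of its 2 tested genes *Des*, desmin, was higher at 20.1 against 9.69 and 7.62 against 1.58, beside 1.33% of all genes. Haemoglobin transcripts stood at 10949 against 10892 CPM and 818 against 541, and myeloid transcripts at 47.4 against 46.1 and 139 against 143. The pericyte and smooth muscle list stood at 121 against 153 and 351 against 344 CPM, with *Myh11* at 0 in both, the mast cell list at 83.6 against 87.3 and 20.3 against 20.8, and the neuronal and pineal list at 0.187 against 0.106 and 3.05 against 2.81. Their part in the other results was not tested.

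The list that leaned most toward EC3 among those of fibroblast biology was that of adventitial fibroblast progenitors. Of its 18 tested genes 4 were higher and none lower, beside 1.33% and 2.22% of all genes, with a median log2 ratio of 0.63 at E15.5 and 1.98 at E17.5, beside −0.05 for all genes in both libraries. The list holds *Pi16* and *Dpt*, the markers given for EC3, and *Dpt* is among those called higher. Its counts are thus no support for the label. At E17.5 alone 17 of the 18 were at least 2-fold higher, beside 6.88% of all genes. From E15.5 to E17.5 the list had a median log2 ratio of 0.24 in EC3 and −0.93 in the other cells. The makeup of the other cells also differed between the libraries. *Dpp4* stood at 236 against 86.8 CPM and 109.7 against 23.2. *Clec3b*, tetranectin, stood at 1052 against 512 CPM at E15.5 and 1359 against 181 at E17.5. *Creb5*, a transcription factor, stood at 252 against 109.4 and 129 against 40.7 CPM. *Ly6a* and *Cd34* differed by less than 2-fold at E15.5 and by more at E17.5. *Ly6a* stood at 391 against 352.5 CPM (1.11, 1.07 to 1.15) and then 1014 against 186 (5.45, 5.20 to 5.71), and *Cd34* at 363 against 272 and then 612 against 168. In the 3 suffixes *Ly6a* stood at 1677, 849 and 913 CPM. All of these genes were higher in EC2 than in EC3 at E17.5, with 1707 CPM of *Ly6a*, 799 of *Cd34* and 1748 of *Clec3b* in EC2.

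Among the other dermal lists, *Dlk1*, an imprinted gene of reticular dermis and fat precursors, stood at 7387 against 3091 CPM and 6457 against 850 CPM (2.39, 2.37 to 2.41, and 7.59, 7.45 to 7.74). Of 13 tested genes of that list *Dlk1* was higher and *Cd24a* lower, beside 1.33% and 2.22% of all genes. Of 7 tested papillary dermis genes, *Crabp1*, *Rspo1* and *Wif1* were lower and none higher, beside the same shares of all genes. Their levels were 167 against 371, 4.85 against 20.2 and 4.48 against 82.4 CPM at E15.5, and 12.2 against 33.9, 11.2 against 28.7 and 31.5 against 139.5 CPM at E17.5.

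Of 50 tested transcription factors of the head mesenchyme, *Ebf3* was higher (63.2 against 29.9 and 33.5 against 7.02 CPM) and 12 were lower, beside 1.33% and 2.22% of all genes. The latter include *Runx2* and *Dlx5*, regulators of osteoblasts, at 4.76 against 35.2 and 2.24 against 12.5 CPM at E15.5 and 34.5 against 85.6 and 19.3 against 106 CPM at E17.5, and *Msx2*, *Alx4*, *Foxd1*, *Foxc2*, *Tcf7* and *Lef1*. *Osr2*, a zinc finger factor of connective tissue, stood at 311 against 162 CPM at E15.5, short of 2-fold, and at 320 against 38.1 at E17.5. *Ebf1*, a factor of early mesenchymal and fat progenitors, stood at 649 against 409 and 655 against 163 CPM. *Gata6*, a zinc finger factor named after its values were seen, stood at 66.9 CPM at E15.5, first of the 15 clusters, and at 19.3 CPM at E17.5, behind EC2 with 28.6.

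Among matrix genes, *Col1a1*, a chain of type I collagen, stood at 3498 against 7302 CPM at E15.5 and at 10238 against 10841 at E17.5. Of 23 collagen chains, *Col5a3*, a minor chain of type V collagen, was higher (131 against 62.1 and 128 against 26.8 CPM) and *Col26a1*, *Col8a2* and *Col13a1* were lower. *Dcn*, decorin, was the most abundant of 11 small proteoglycans, at 8177 against 4238 CPM and 6934 against 1749, a ratio of 1.93 and 3.96 that missed the limit at E15.5. *Kera*, keratocan, was higher, and *Fmod*, *Podnl1* and *Omd* were lower. None of 18 elastic fibre genes was called, with medians of −0.09 and 0.71, and *Fbn1*, fibrillin 1, stood at 702 against 525 and 814 against 255 CPM. In the hyaluronan and glycan list of 14 genes, *Ccdc80* was higher and *Tnc*, tenascin C, lower. The counts of these matrix lists stand beside 1.33% higher and 2.22% lower of all genes.

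Among genes of cell signalling, of 20 Wnt genes *Sfrp4* and *Rspo2*, a secreted enhancer of Wnt signalling, were higher, and *Wif1*, *Frzb*, *Rspo1*, *Lef1*, *Nkd1* and *Nkd2* were lower. *Rspo2* stood at 52.3 against 23.1 CPM at E15.5 and 33.5 against 2.94 at E17.5. *Lef1* and *Nkd1*, which are commonly induced by Wnt signals, stood at 1.03 against 17.98 and 23.4 against 63.2 CPM at E15.5. Of 20 genes of BMP and TGF-beta signalling *Fst* was higher, and *Nog*, the BMP antagonist noggin, *Tgfb1* and *Inhba* were lower. Of 17 FGF and PDGF genes *Fgf7*, a factor that acts on epithelia, was higher at 32.5 against 14.6 and 31.0 against 7.95 CPM, and *Fgfr2*, *Pdgfa* and *Dusp6* were lower. None of 11 IGF genes or 15 Notch and ephrin genes was called. *Jag1*, a Notch ligand, stood at 56.4 CPM in EC3 against 54.9 in the other cells at E15.5 and 43.7 against 18.4 at E17.5, well under the 219 and 85.4 CPM of EC1, and *Epha4*, an ephrin receptor, at 28.6 against 29.6 and 13.7 against 19.4 CPM. Of 12 chemokine and complement genes *Cxcl1* and *C1s1* were higher, and of 13 retinoid genes *Aldh1a2*, which makes retinoic acid, was higher and *Crabp1* and *Cyp26b1* were lower. All counts of these signalling lists stand beside 1.33% higher and 2.22% lower of all genes.

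**Figure D2:**
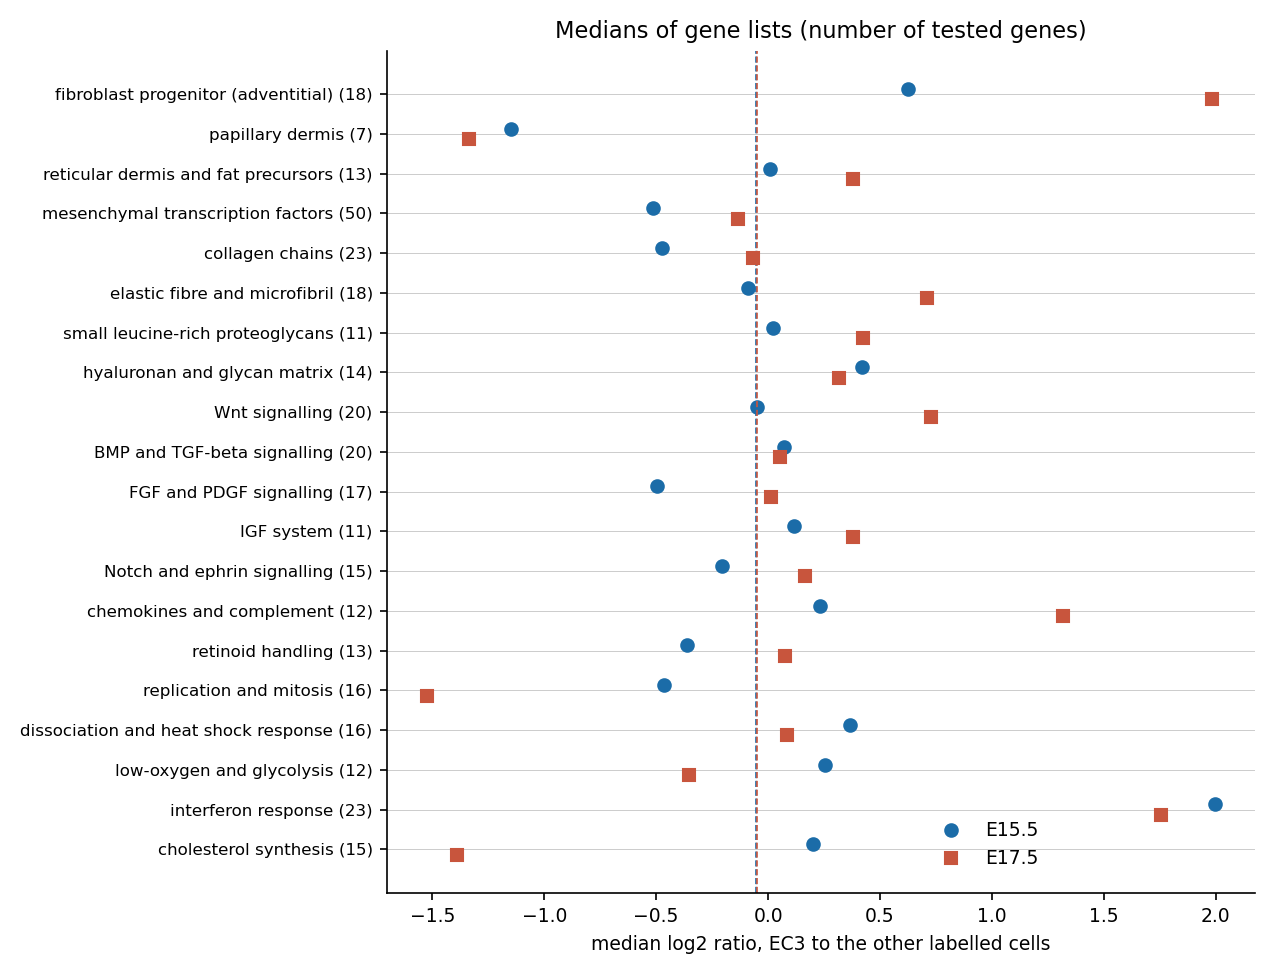
Median log2 ratio of EC3 to the other labelled cells over the tested genes of 20 lists, at E15.5 (circles) and E17.5 (squares), with the number of genes in brackets. Dashed lines mark the median of all genes, −0.05 in both libraries. The adventitial progenitor list stands at 0.63 and 1.98, the interferon response list at 2.00 and 1.76, and the cholesterol synthesis list at 0.20 and −1.39.

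Transcripts of dividing cells were lower in EC3 than in the other cells, more so at E17.5. None of 16 replication and mitosis genes was called in both libraries, but 14 of 16 were at least 2-fold lower at E17.5, beside 7.04% of all genes, with medians of −0.46 and −1.52. *Top2a*, a topoisomerase of dividing cells, stood at 85.4 against 138 CPM and 39.6 against 146, and *Mki67* at 32.0 against 49.9 and 16.2 against 49.0. By the deposited phase calls the share of EC3 cells in G1 was 73.1% (70.5 to 75.6) in the E15.5 library and 86.6% (81.0 to 91.1) in the E17.5 library, against 66.2% and 64.6% of the other cells. The other cells include PO1 and PO2, which the paper describes as proliferative. At E15.5 the G1 share was 79.1% in EC4, above EC3, 70.8% in EC2 and 67.6% in EC1. At E17.5 it was 79.2%, 64.8% and 58.6% in these clusters.

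As given above, 9 of the 15 leading genes of EC3 belong to the interferon response. Type I interferons signal through transcription factors that bind an element with repeated GAAA letters in front of antiviral genes such as the *Ifit* family, *Isg15*, a ubiquitin-like protein, and *Irf7*, a factor that amplifies the response. A list of 30 such genes was set up after the data were seen, and its counts are a description only. Of 23 tested genes 15 were higher in both libraries and none lower, beside 1.33% and 2.22% of all genes. The promoters of 5 of them are shown, as RefSeq gives them for GRCm38.p6 (30 bases, on the strand of the gene), because the letters GAAANNGAAA, in capitals on either strand, lie within them. In *Isg15*, *Gbp3* and *Irgm1* 2 matches overlap and are capitalised as 1 run. They are at chr19:34583363-34583392 for *Ifit3*, chr19:34640775-34640804 for *Ifit1*, chr4:156200877-156200906 for *Isg15*, chr3:142559989-142560018 for *Gbp3* and chr11:48871431-48871460 for *Irgm1*.
Ifit3: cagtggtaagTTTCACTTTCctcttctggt
Ifit1: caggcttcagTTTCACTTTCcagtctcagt
Isg15: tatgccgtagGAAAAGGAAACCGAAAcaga
Gbp3: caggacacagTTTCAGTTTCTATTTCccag
Irgm1: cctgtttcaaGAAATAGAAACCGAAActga
RefSeq promoters matched 23 of the 30 list genes by symbol. Of these (250 bases before to 50 after the start) 15 held these letters (65.2%), against 943 of 27025 promoters in all (3.49%). The list was made of genes of the interferon response, so this share describes the list and not EC3. The windows of *Oasl2*, *Phf11d* and *Irf7*, which were also among the leaders, did not hold them.

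Summed over the list EC3 had 457 CPM at E15.5 against 144 in the other cells, and 280.3 against 96.4 at E17.5. The highest of EC1, EC2 and EC4 were EC1 with 271 CPM at E15.5 and EC4 with 225 CPM at E17.5. The 5% of EC3 cells with the most list UMIs held 47.1% of them at E15.5 (59 cells) and 56.3% at E17.5 (10 cells). At E17.5, 2 cells held 195 of 552 list UMIs, and *Ifit1* was found in 4 of 194 cells, with 31 of its 40 UMIs in 1 cell. At E15.5 *Ifit1* was found in 48 of 1185 cells and *Isg15*, at 31.5 against 5.46 CPM, in 87. After thinning to 3000 UMIs, 87 of 1160 EC3 cells (interval 6.05% to 9.17%) had UMIs of at least 3 list genes at E15.5, against 1.49% of the other cells (1.14 to 1.92), 4.64% in EC1 and 2.21% in EC2. At E17.5 the shares were 2.06% (0.565 to 5.19) and 0.573% (0.406 to 0.785), and EC4 had 3.78%. Without thinning, the E15.5 shares were 23.5% and 8.39% and the E17.5 shares 13.9% and 10.1%. Unthinned at E17.5, EC4 (30.0%) and EC2 (18.4%) exceeded EC3, at median depths of 10667 and 12602 UMIs beside 9243.5 in EC3. In the suffixes at E17.5 *Isg15* was 24.7-fold, 1.39-fold and 19.2-fold higher in EC3 than in the other cells.

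Of 16 genes of dissociation stress and heat shock none was called, and EC3 stood at 6023 against 4529 CPM in sum at E15.5 and 2867 against 2530 at E17.5. *Atf3*, a stress-induced factor, stood at 313 against 119 CPM at E15.5 and 15.2 against 13.9 at E17.5. Of 12 low-oxygen and glycolysis genes *Adm*, adrenomedullin, was higher (18.2 against 6.12 and 7.62 against 2.64 CPM), beside 1.33% of all genes. Their part in the other results was not tested.

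EC3 was compared with its ectocranial neighbours EC1, EC2 and EC4. Against EC1, 88 of 7258 genes were at least 2-fold apart in both libraries (1.21%), of which 5 were higher in EC3 and 83 lower. The 5 were *Gas6*, *Fgf7*, *Stoml1*, *Atp1b1* and *Zfp942*, with *Gas6*, a ligand of TAM receptors, at 25.6 against 11.1 and 113 against 39.1 CPM. In the 3 suffixes at E17.5 *Gas6* stood at 29.4, 145 and 111 CPM in EC3. In suffix 1, on 10 UMIs, *Gas6* was below the other labelled cells (0.318, 0.152 to 0.587), and in suffixes 2 and 3 above them. At E15.5, 103 of its 274 UMIs lay in the 56 cells of the *Tnc* group described further on, without which *Gas6* stood at 16.6 CPM, short of 2-fold over EC1, and was 2.01-fold higher than in EC2. The lowest were *Abhd2*, *Spry2*, *Cdk6*, *Rpgrip1* and *Notch2*. *Notch2*, a Notch receptor, stood at 34.7 in EC3 against 228 CPM in EC1 at E15.5 and 38.1 against 211 at E17.5, and *Spry2*, an inhibitor of FGF signalling, at 32.4 against 207 and 6.60 against 46.7.

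Against EC2, its closest neighbour, 80 of 9361 genes were apart (0.855%), 34 higher and 46 lower in EC3. The 5 leaders were *Isg15*, *Epha3*, *Gas6*, *Ifit1* and *Lifr*. *Epha3*, an ephrin receptor, stood at 29.6 against 9.01 CPM at E15.5 and 54.8 against 5.79 at E17.5 (9.48, 6.65 to 13.7). The lowest were *Akr1c18*, *AI593442*, *Krtdap*, *Inhbb* and *Ccdc68*, with *Krtdap*, a secreted protein first known from keratinocytes, at 70.9 against 291 and 109 against 538 CPM.

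Against EC4, 259 of 8283 genes were apart (3.13%), 110 higher and 149 lower in EC3. *Aldh1a3*, *Ifit1*, *Bmp7*, *Dpp4* and *Creb5* led, with *Aldh1a3*, a retinaldehyde dehydrogenase, at 53.1 against 4.89 CPM and 55.3 against 3.34, and *Bmp7* at 56.3 against 6.35 and 45.7 against 3.56. The lowest were *Hmga2*, *Nog*, *Cxcl14*, *Bhlhe41* and *Pthlh*, with *Cxcl14*, a chemokine, at 116 against 1426 CPM and 123 against 1541. *C1qtnf3*, a secreted protein, differed from EC4 in the same direction, with 63.0 CPM beside 898 at the earlier stage and 529 beside 1492 at the later, and *Tnmd*, tenomodulin, had 40.0 beside 319 and 78.7 beside 404 CPM.

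The likeness of EC3 to the clusters was described by Pearson's r over 7269 genes, on log2(CPM + 1) less the mean of the 15 clusters of the library. The genes share libraries and are not independent, so r is a description. Within E15.5 EC3 was most like EC2 (r = 0.86), then EC1 (0.77) and EC4 (0.38). Within E17.5 it was most like EC2 (0.74), then EC4 (0.41) and EC1 (0.33). Between libraries, EC3 at E15.5 was slightly more like EC2 (0.74) than EC3 (0.71) of E17.5, while EC3 at E17.5 was slightly more like EC3 (0.71) than EC2 (0.69) of E15.5.

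**Figure D3:**
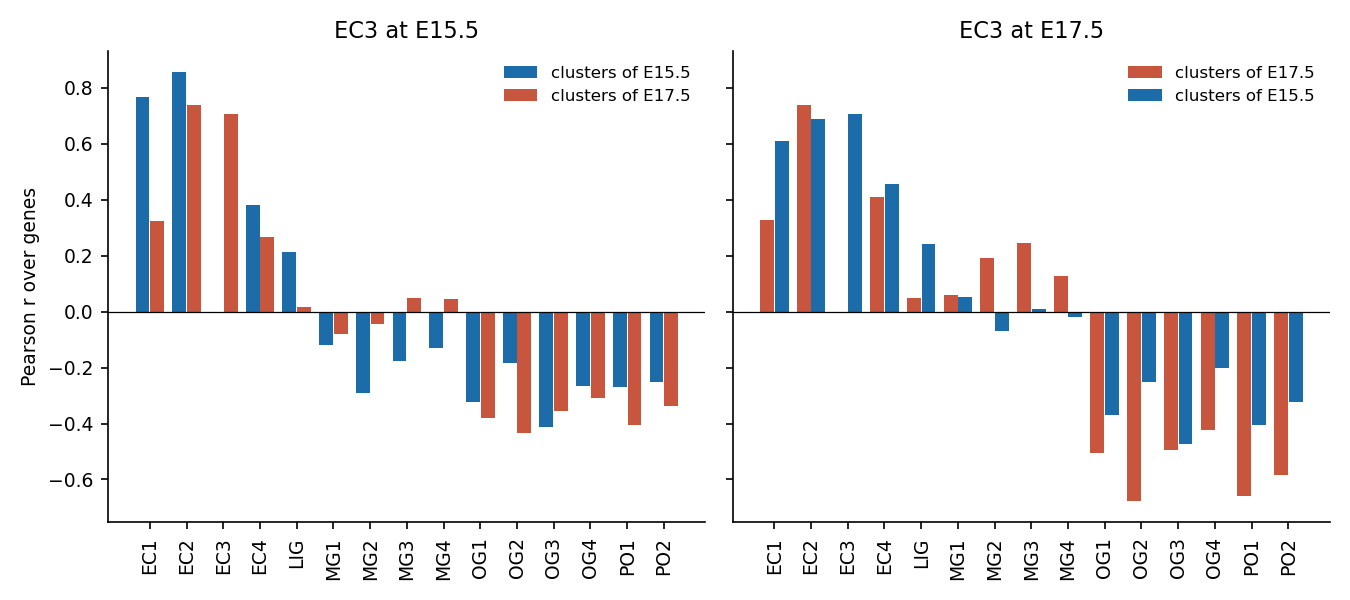
Pearson's r over 7269 genes between EC3 at E15.5 (left) or E17.5 (right) and the clusters of both libraries, after centring on the mean of the 15 clusters of each library. The tallest bars within a library are those of EC2 (0.86 and 0.74), and EC3 of the other library stands at 0.71.

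Between the libraries the other cells shared part of the differences seen in EC3. Of 10085 genes with at least 50 UMIs over EC3 in both libraries together, 1574 were at least 2-fold apart (15.6%), 553 higher and 1021 lower (10.1%) at E17.5. The E15.5 library holds most of the EC3 UMIs, so a gene high at E15.5 passes this minimum more readily than one high at E17.5, and the balance of the counts is not read. Among 7620 genes with a mean of at least 10 CPM over the libraries, a filter added after the values were seen, 396 were higher and 558 lower. Of the 1574, 202 and 543 were also apart by 2-fold in the same direction in the other labelled cells. To set the shared part aside, genes were ranked by the ratio of EC3 between the libraries over that of the other cells. The 8 with the largest such ratio, led by *BC023719*, *Lsmem1* and *Srp54a*, had 0 or 1 UMI in EC3 at E17.5, so their rank rests on the floor of 3 UMIs. The libraries were also counted against gene lists of different length (31053 and 27998 genes). The leaders among genes with more than 3 UMIs in EC3 in both libraries, chosen after the values were seen, included *Il33*, *Ngfr*, *Slitrk6*, *Itgbl1*, *Lrp1b*, *Sorcs3* and *Stmn2*.

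*Ngfr*, the low-affinity nerve growth factor receptor, stood at 29.4 CPM in EC3 at E15.5 and 36.6 at E17.5, while the other cells went from 34.2 to 3.07. At E17.5 EC3 thereby had the highest level of the 15 clusters, on 72 UMIs, but the margin over EC4 with 33.2 CPM was small. *Slitrk6*, a neuronal membrane protein, stood at 9.70 and 25.4 CPM in EC3 beside 9.11 and 1.73 in the other cells. *Il33*, an interleukin of barrier fibroblasts, stood at 1.03 and 20.8 CPM in EC3 beside 6.39 and 8.53. *Msx1*, a homeobox factor of the sutures that came eleventh in this order, stood at 2.33 and 71.6 CPM, but 83 of its 141 UMIs at E17.5 lay in the 28 cells of the *Matn4* group described further on, without which it stood at 34.2. *Itgbl1*, with 22.3 CPM at E17.5, had 21 of 44 UMIs in those cells.

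At the low end stood *Dok5*, *Cnn1*, *Tac1*, *Aspm*, *Parvb*, *Bmp2*, *Fam83d* and *Idi1*. They had few UMIs in EC3 at E17.5, from 3 for *Dok5*, which is at the floor, to 19 for *Idi1*. For *Cnn1* (0.114 to 1.19) and *Parvb* (0.110 to 1.14) the interval of the EC3 ratio between libraries contains 1. *Tac1*, the precursor of substance P, stood at 14.4 and 6.60 CPM in EC3 beside 13.99 and 44.9 in the other cells, and *Bmp2*, an osteogenic ligand, at 15.8 and 3.05 beside 14.8 and 18.3. *Idi1*, an enzyme of sterol synthesis, stood at 44.9 and 9.65 CPM beside 35.7 and 41.7. A list of 15 cholesterol synthesis genes, set up after *Idi1* was seen, was lower by at least 2-fold at E17.5 than at E15.5 in 14 of 15 genes in EC3, beside 10.1% of all genes, with a median log2 ratio of −1.33, while the median in the other cells was 0.21. *Hmgcs1*, an early enzyme of the pathway, stood at 153 and 39.1 CPM in EC3 beside 97.3 and 85.3. In sum the list stood at 680 and 234 CPM in EC3 and at 566 and 618 in the other cells.

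**Figure D4:**
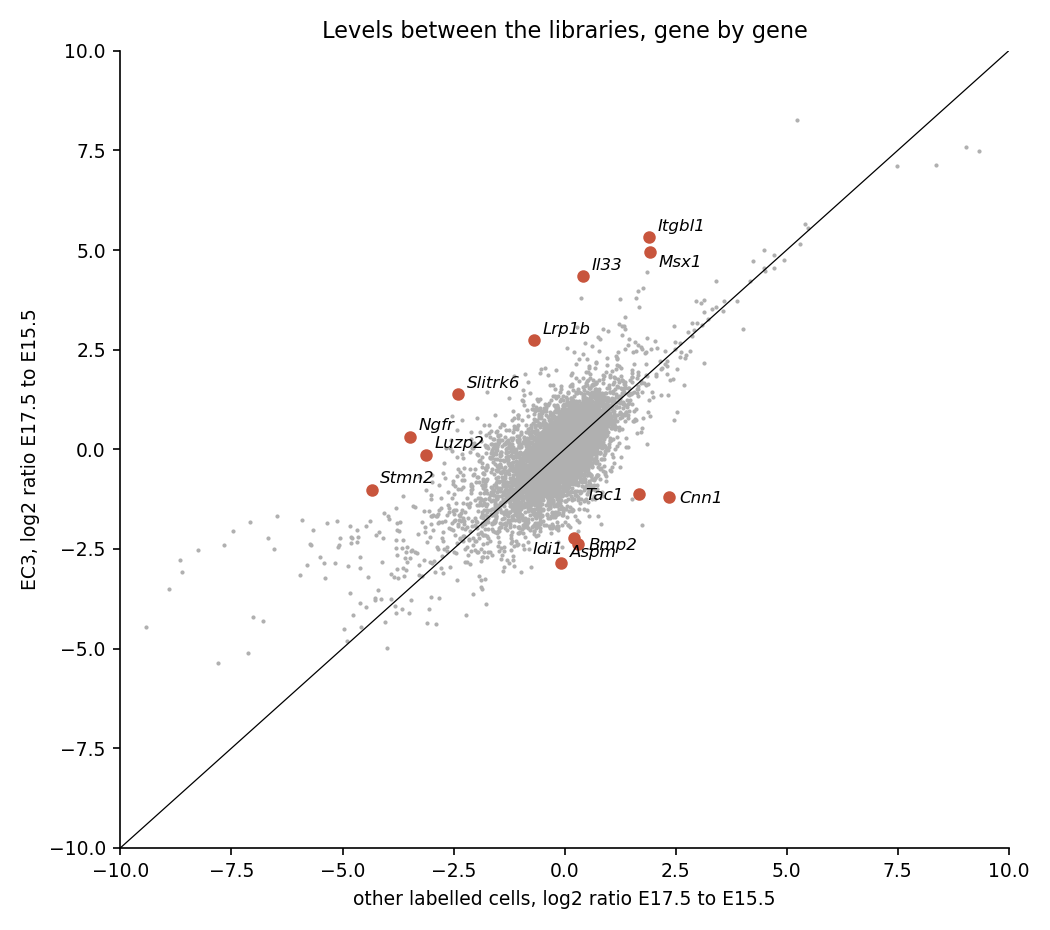
Log2 ratio of E17.5 to E15.5 for each gene in EC3 (vertical) against the other labelled cells (horizontal), with a floor of 3 UMIs on the lower side. The line marks equal ratios and named genes are coloured. *Ngfr* was lower at E17.5 in the other cells and about level in EC3 (29.4 and 36.6 CPM), and *Tac1* was higher in the other cells and lower in EC3 (14.4 and 6.60 CPM).

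The cells of EC3 were also compared with each other. Leiden clustering of its cells gave 9 groups in the E15.5 library and 5 in that of E17.5, and their leading genes describe the groups with no test. At E15.5 a group of 193 cells led by *Wfdc1*, *Gli1*, *Sostdc1*, *Cadm1* and *Ngfr* had the most *Pi16* (610 CPM) and *C1qtnf3* (219 CPM) and little *Dpt* (124 CPM). *Gli1*, a target of hedgehog signalling, stood at 27.6 CPM there and 2.24 in the other EC3 cells. A group of 230 cells led by *Ppl*, *Gna14*, *Des*, *Msra* and *Nt5e* had the reverse, with 869 CPM of *Dpt* and 127 of *Pi16*. A group of 155 cells with *Csmd3*, *Sybu*, *Mpped2* and *Ntng1* among its leading genes was low in both, with 48.1 and 98.8 CPM, and kept 1756 CPM of *Agtr2*. The rest of the larger groups were 210 cells led by *Il6*, *Ryr2*, *Cxcl1*, *Mt2* and *Slc7a11*, where *Il6* stood at 112 against 13.9 CPM, and 152 cells led by *Bmp2k*, *P2rx4*, *Lgals7*, *Zfp317* and *Ibsp*.

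Of the smaller groups at E15.5, 122 cells led by *Cdc6*, *Clspn*, *Ccne2*, *Zfp367* and *Tpsb2* and 37 cells led by *Plk1*, *Nusap1*, *Kif11*, *Cenpf* and *Sapcd2* carried genes of DNA replication and of mitosis. In them 51.6% were called S phase and 100% G2M. The mast cell list summed to 219 CPM in the former (39.9 to 72.1 in the other 8 groups) and the myeloid list to 257 in the latter (28.0 to 52.9), and their part in these groups was not tested. A group of 30 cells, led by *Rsad2*, *Ifit3*, *Ifit1*, *Usp18* and *Iigp1*, held 132 of the 183 *Ifit1* UMIs of EC3. A group of 56 cells led by *Tnc*, *Nppc*, *Sparcl1*, *Enpp2* and *Gas6* kept *Dpt* (685 CPM) but had 24.0 CPM of *Pi16*, 9.61 of *Ly6a* and 2.40 of *Gata6*. Its highest likeness to another cluster was r = 0.19, with LIG, the cluster enriched for tendon and ligament genes.

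At E17.5 the groups were 59 cells led by *Gngt2*, *Nkain4*, *Ncam2*, *Disp1* and *Nov*, 45 led by *Top2a*, *Cenpa*, *Cenpf*, *Sp7* and *Msr1*, 36 led by *Lrp1b*, *Slitrk6*, *Luzp2*, *Ngfr* and *C1qtnf3*, 28 led by *Matn4*, *Lect1*, *Mia*, *Hmox1* and *Angpt2*, and 26 led by *Bst2*, *Ifi27l2a*, *Clu*, *Ntrk2* and *S100b*. In the group led by *Top2a*, 15 of the 45 cells were among the 19 EC3 cells with high doublet scores, and the osteoblast markers summed to 833 CPM. The group led by *Lrp1b* held 1523 CPM of *C1qtnf3*, and its closest group at E15.5 was that of *Gli1* (r = 0.64). The group led by *Gngt2* was also most like the *Gli1* group (r = 0.71).

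The *Matn4* group goes against the label. Its 28 cells had 0 UMIs of *Agtr2* and *Tmeff2*, 11.0 CPM of *Dpt*, 29.5 of *Pi16* and 22.1 of *Ly6a*, and 545 CPM of *Matn4*, a cartilage matrix protein, against 10.6 in the other EC3 cells. The meningeal markers summed to 696 CPM and the chondrocyte markers to 379, the highest of the 5 groups in both. Among the 14 other clusters it was most like MG1 (r = 0.40) and MG2 (0.32), both meningeal, whereas the other 4 groups were most like EC2. It came from suffixes 2 and 3 (16 and 12 cells), with none from suffix 1, and none of its cells had a high doublet score. Without it *Dpt* was 3.76-fold and *Pi16* 5.11-fold higher in EC3 than in the other cells at E17.5, and 160 genes were higher and 312 lower in both libraries. *Gas6*, among the 5 leaders against EC1 and EC2, stood at 113 CPM with the group and at 90.1 without it.

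**Figure D5:**
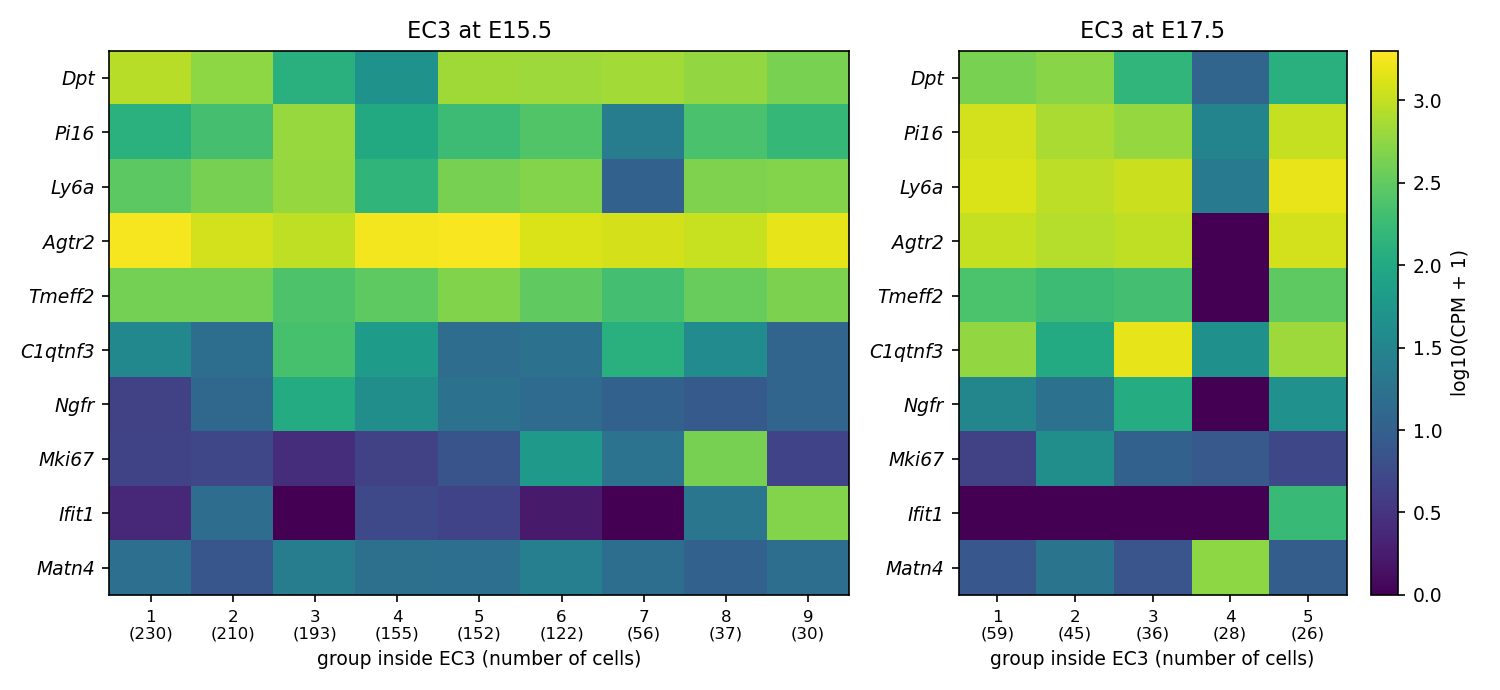
Level of 10 genes in the groups of cells found inside EC3 at E15.5 (left) and E17.5 (right), as log10(CPM + 1), with the number of cells in brackets. At E17.5 group 4, the *Matn4* group, has 0 UMIs of *Agtr2* and 545 CPM of *Matn4*, and at E15.5 group 9 has 479 CPM of *Ifit1*.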

How the data were processed

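Cells of dissected coronal sutures were captured with 10x Genomics Chromium 3′ reagents and aligned to mm10 with Cell Ranger by the authors, who deposited matrices of raw UMI counts. Per the file headers the E15.5 matrix was written by a later Cell Ranger version than the study's methods name. The authors also deposited a table with the cluster, cell cycle phase and percent of mitochondrial and Hb UMIs of each cell, whose cluster and phase columns were used. Of 5340 labelled E15.5 barcodes, 5 are not in the matrix and none of them is EC3, and all 5335 others have fewer UMIs there than in the table (EC3 median 11673 in the table). E17.5 cells agree exactly. No per-sample column was left unmapped.

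UMIs were summed over cells and divided by the total, with exact Poisson, Clopper-Pearson and conditional exact ratio intervals (95%). Ratios carry a floor of 3 UMIs on the lower side, and genes were matched by identifier (27514 shared). Cells under 3000 UMIs were left out of thinned shares only (25 EC3 cells at E15.5). Groups inside EC3 come from Leiden clustering at resolution 0.5, on 15 neighbours in 20 principal components of 2000 variable genes. A doublet score (Scrublet) was called high from percentile 94 upward, taken at E17.5 within each barcode suffix (34 and 19 EC3 cells), and such cells were kept. Cells outside the study's limits (12 of EC3) were kept. Tools were scanpy 1.11.5 with igraph 0.11.9 and scikit-learn 1.9.0, scipy 1.17.1, anndata 0.12.19, matplotlib 3.10.9, pandas 2.3.3 and numpy 2.4.6 in Python 3.11.15, and the ratios were tested on simulated data. Members, lists and comparisons were chosen with earlier results of these data known. Genes named are the 7 that the study places in ectocranial layers, the 15 largest and 10 smallest ratios, up to 4 examples per list with those of clear role, 5 per side against each neighbour, 8 per side between libraries and 5 per group. Some named genes are not reported here.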

Additional observations from a re-analysis of the deposited data

Results flagged for a closer look

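Only the markers, leading genes and other picked genes were searched here, not all tested genes, and some had been ranked by the contrast between libraries. Of these, 5 had ratios of EC3 to the other labelled cells on opposite sides of 1 in the 2 libraries, with intervals clear of 1. Each had more than 3 UMIs in EC3 in every suffix, and all 3 barcode suffixes at E17.5 had the direction of their library. With 1 library a stage the difference was not tested. *Pi16* had a ratio of 0.782 at E15.5 and 4.43 at E17.5. *C1qtnf3* had 0.434 and 2.98, *Ngfr* 0.859 and 11.9, and *Il33* 0.161 and 2.44. *Idi1* went the other way, with 1.26 and 0.232.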

How the results depend on the processing

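*Pi16* at E15.5 changed direction, from 0.782 to 1.70 against the unweighted mean of the other 14 clusters and to 1.26 when thinned shares were compared. The cause was not tested. *Isg15*, in its weaker library, stood at 0.924 without labelled cells that had UMIs of 3 or more interferon genes (chosen after seeing the data), a filter whose list holds *Isg15* itself, so the drop follows from how the cells were chosen. The count of genes higher in EC3 was 81, 99 and 107 with barcode suffix 1, 2 or 3 alone, 343 against the unweighted mean, 529 at 1.5-fold, 31 at 3-fold, 355 with at least 1 UMI, 84 with at least 200 and 48 with at least 50 in EC3 itself. The count of lower genes was 147 with suffix 1 alone, 411 against the unweighted mean, 658 at 1.5-fold and 98 at 3-fold. At 1.5-fold, 3-fold, 1 UMI and 200 UMIs, the counts were 257, 27, 241 and 31 against EC1, 339, 17, 297 and 26 against EC2, 638, 117, 584 and 107 against EC4, and 3452, 652, 2743 and 708 between stages, where a mean of at least 10 CPM (chosen after seeing the data) gave 954. The E17.5 share was 3.36% in suffix 2, 2.34% in suffix 3 and 2.21% of all cells within limits, and the E15.5 share 14.5% of all such cells. *Dpt* at E15.5 was 2.42 as a mean over cells, 3.73 unweighted and 1.86 as a thinned share, and at E17.5 it was 2.17 in suffix 1, 3.99 in suffix 3 and 3.76 without the *Matn4* group (this and the limit of 50 UMIs in EC3 itself were also chosen after seeing the data). *Pi16* at E17.5 was 3.03, 5.19 and 5.49 in the suffixes, 4.07 as a mean over cells, 3.61 as a thinned share and 5.11 without the *Matn4* group. The likeness between libraries was 0.58 by Spearman and 0.79 above 50 CPM. No paired analysis was possible because each stage is 1 library and no result comes from a test.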
